A study of Mus musculus with 4 samples.

Results

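The genes described here encode fibronectin, proteins of the elastic fibre and matricellular proteins of skeletal muscle. Of the 10 genes Fn1, Fbn1, Eln, Fbln1, Fbln2, Fbln5, Mfap5, Postn, Sparc and Ccdc80, those with at least 1 probe set assigned to that symbol alone were taken, which gave 9 of the 18193 genes named in the array's probe table. No probe set was assigned to Fbn1 (fibrillin-1) in that table, so it was not analysed here. The 9 genes had 19 probe sets in all, and each gene was represented by its brightest one by the mean over the 4 arrays, with the other 10 given beside it. All 9 passed the filter on dim probe sets. The choice of genes used no difference between the groups, but it was made with earlier results of these data known.

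Expression was measured on Affymetrix arrays in a shin muscle, the tibialis cranialis, of 8 male C57Bl/6 mice that were moved from chow to a high fat diet at 8 weeks of age. After 4 weeks on the diet 1 tibialis cranialis of each mouse was injected with AAV8 ProMyo and the opposite one with saline, and both were collected 10 weeks later at 22 weeks of age. AAV8 is a serotype of adeno-associated virus used to carry genes into muscle, and ProMyo stands for the myostatin propeptide, which keeps mature myostatin, a brake on muscle mass, from acting. RNA was mixed in equal amounts from animals 1-4 and from animals 5-8, which gave 2 ProMyo arrays and 2 saline arrays, so that each pool contributes both muscles of the same 4 mice. All mice were on the high fat diet, the control muscle received saline and no empty vector, and the promoter that drives the transgene is not given in the sources used here.

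Elastic fibres have a core of elastin (Eln) laid on microfibrils of fibrillin and microfibril-associated proteins such as Mfap5, with fibulins linking elastin, fibrillin and cells. Fibronectin (Fn1) is assembled by cells through integrins into a network on which other matrix proteins are deposited. Matricellular proteins such as periostin (Postn) and osteonectin (Sparc) are secreted into the matrix and alter how cells and collagen interact in it. In muscle these proteins come largely from fibroblasts and fibro-adipogenic progenitors of the connective tissue, and myostatin belongs to the TGF-beta family, whose signals pass through Smad proteins.

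Of the 9 genes, Ccdc80 stood furthest from equality, at 0.50 times the saline level in ProMyo muscle. Fn1 was at 0.70 times the saline level, and most of its difference came from 1 pool. Both ProMyo arrays were below both saline arrays for Ccdc80, Fn1 and Sparc, against 15.7% of all genes. For Postn both were above, against 17.8% of all genes. Fbln2 was at 1.37 times and Postn at 1.24 times the saline level. The brightest probe sets of Mfap5 and Fbln1 differed by 0.03 and -0.02 on the log2 scale. No gene passed the test in either direction, neither among the 9 nor among the 15102 genes tested (limma, Benjamini-Hochberg adjusted p under 0.05 in 0% of genes, smallest adjusted p = 0.822). At an unadjusted p under 0.05 there were 874 genes, or 5.79%, and Ccdc80 was the 1 of the 9 among them.

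**Figure D1:**
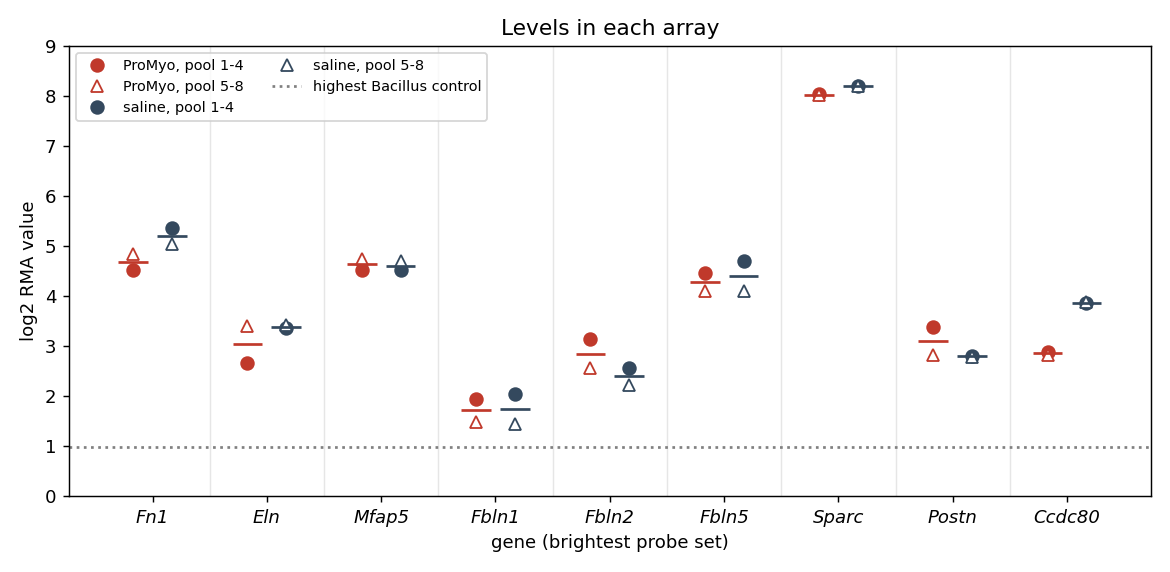
The log2 RMA values of the 9 genes are plotted by array, with ProMyo muscle in red left of saline muscle in dark blue, circles for animals 1-4, triangles for animals 5-8 and bars for group means; the dotted line is the highest Bacillus control of any array, at 0.99. Ccdc80 lies at 2.89 and 2.82 in ProMyo muscle, against 3.86 and 3.88 in saline muscle, while the arrays of Fbln1 and Fbln5 part by pool in both groups.

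The arrays had medians of 1.06 to 1.11 on the log2 scale. The saline 5-8 array stood apart with its upper quartile at 2.97 (3.15 to 3.19 in the others) and its spiked hybridization controls at a mean of 11.1 (10.1 to 10.2 in the others). Bacillus controls, for which no target is present in muscle RNA, reached 0.57 to 0.99 and mark the background. The 3' minus 5' signal of the Gapdh controls, which reads RNA integrity and amplification, was 0.58 and 0.74 in ProMyo arrays and 0.90 and 0.81 in saline arrays, and that of the Actb controls was 1.64 and 1.72 in ProMyo arrays and 1.96 and 1.80 in saline arrays. Both control ratios were thus lower in ProMyo muscle, as were the brightest probe sets of Fn1, Sparc and Ccdc80, and their part in these results was not tested. Genes of muscle fibres (Acta1, Ckm, Myh4, Myh1, Mylpf and Pvalb) read between 9.32 and 12.27 in every array, so the arrays carry the labelled tissue.

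Fn1 encodes fibronectin. Its brightest probe set, 1426642_at, read 4.52 in pool 1-4 and 4.85 in pool 5-8 of ProMyo muscle, against 5.36 and 5.05 in saline muscle. The ProMyo arrays were the 2 lowest of the 4, although the gap between ProMyo 5-8 and saline 5-8 was small. The means were 4.69 ± 0.23 in ProMyo muscle and 5.21 ± 0.22 in saline muscle (SD, n = 2 pools each), and the difference was -0.52 ± 0.21 (log2 ± SE), with a 95% interval of -1.05 to 0.01 that just includes no difference (limma, adjusted p = 0.822). Within pools it was -0.84 in animals 1-4 and -0.19 in animals 5-8. Whether the pools differ from each other was not tested, since 1 array of each kind per pool leaves no residual for such a test. The other probe set of Fn1, 1437218_at, was near background, with 0.72 and 0.73 in ProMyo muscle against 0.45 and 0.46 in saline muscle. It was above the Bacillus controls in both ProMyo arrays and in neither saline array, so its saline level is only a bound and it gives no direction.

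Eln encodes elastin, the rubber-like core of the elastic fibre. Probe set 1420855_at read 2.66 and 3.41 in ProMyo muscle, against 3.36 and 3.43 in saline muscle. Only the ProMyo 1-4 array was low, and the groups overlapped. The difference was -0.36 ± 0.28 (log2 ± SE, 95% interval -1.07 to 0.36, limma, adjusted p = 0.865), with -0.69 in pool 1-4 and -0.02 in pool 5-8, and without the ProMyo 1-4 array it was 0.02. The dimmer probe set 1420854_at was above the Bacillus controls in 3 of 4 arrays, and its differences within pools, 0.21 and -0.45, had opposite signs.

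Mfap5 encodes microfibril-associated glycoprotein 2, which binds fibrillin and cell surface integrins. Probe set 1449082_at read 4.53 and 4.75 in ProMyo muscle, against 4.52 and 4.70 in saline muscle. The pools of each muscle differed more than the muscles of each pool. The difference between groups was 0.03 ± 0.18 (log2 ± SE), and its 95% interval of -0.42 to 0.48 leaves room for folds between 0.75 and 1.40 (limma, adjusted p = 0.987). The other probe set, 1418454_at, was nearly as bright, with 4.31 and 4.21 in ProMyo muscle, against 4.52 and 4.32 in saline muscle. Its differences were -0.21 and -0.11, so the probe sets of Mfap5 disagree in sign; at the brighter one the sign also turned without ProMyo 5-8 (-0.08), without saline 1-4 (-0.06) and with quantile normalization (-0.04).

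The fibulins are calcium-binding glycoproteins at the surface of elastic fibres and basement membranes. Fbln2 encodes fibulin-2, which binds fibronectin, fibrillin and basement membrane proteins. Its brightest probe set, 1423407_a_at, read 3.14 and 2.56 in ProMyo muscle, against 2.56 and 2.23 in saline muscle. In both pools the ProMyo muscle was above the saline muscle of the same mice, by 0.58 and 0.34, but ProMyo 5-8 and saline 1-4 were level. The unpaired difference was 0.46 ± 0.26 (log2 ± SE, 95% interval -0.20 to 1.11, limma, adjusted p = 0.831), and it was 0.17 without ProMyo 1-4 and 0.75 without ProMyo 5-8. The other probe set was within the Bacillus controls in all 4 arrays and gives no direction.

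Fbln5 encodes fibulin-5, which binds elastin and guides its assembly into fibres. Probe set 1416164_at read 4.46 and 4.11 in ProMyo muscle, against 4.70 and 4.11 in saline muscle. The 2 arrays of pool 5-8 had the same value, and both arrays of pool 1-4 lay above them. The difference was -0.12 ± 0.26 (log2 ± SE, 95% interval -0.78 to 0.55, limma, adjusted p = 0.962); it was 0.06 without ProMyo 5-8 and 0.18 without saline 1-4. The second probe set of Fbln5 was within the Bacillus controls in every array. Fbln1 encodes fibulin-1, a fibulin of basement membranes and elastic fibres. It was dim, at 1.94 and 1.49 in ProMyo muscle, against 2.04 and 1.44 in saline muscle, and as for Fbln5 both arrays of pool 1-4 lay above both arrays of pool 5-8. The difference was -0.02 ± 0.28 (log2 ± SE, 95% interval -0.73 to 0.69, limma, adjusted p = 0.997), and without ProMyo 5-8 or saline 1-4 it was 0.21 or 0.28. The other probe sets of Fbln1 differed by -0.43 (-0.19 and -0.67 within pools, above the Bacillus controls in all 4 arrays) and by 0.12, the last from a probe set within the Bacillus controls in saline 5-8. The 2 probe sets of Fbln1 above the controls in every array thus read -0.02 and -0.43.

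Sparc encodes osteonectin, a collagen-binding matricellular protein that takes part in collagen fibril assembly. Probe set 1448392_at read 8.03 and 8.02 in ProMyo muscle, against 8.20 and 8.19 in saline muscle. The SD of each group was 0.01, and both ProMyo arrays were lower. The difference was -0.17 in each pool, and -0.17 ± 0.15 (log2 ± SE) in the fit, which takes most of its error from the spread of all genes (95% interval -0.56 to 0.21, limma, adjusted p = 0.876). A second bright probe set, 1416589_at, read 6.02 and 5.85 in ProMyo muscle, against 5.95 and 5.81 in saline muscle, with differences of 0.06 and 0.05. The small gap at the first probe set was therefore not shared by the second. The third was above the Bacillus controls in 1 array.

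Postn encodes periostin, which binds fibronectin and collagen and is known from fibroblasts of injured and remodelling tissue. Its 1 probe set, 1423606_at, read 3.38 and 2.83 in ProMyo muscle, against 2.81 and 2.78 in saline muscle. Both ProMyo arrays lay above both saline arrays, yet only ProMyo 1-4 was clearly apart. The difference was 0.31 ± 0.23 (log2 ± SE, 95% interval -0.27 to 0.89, limma, adjusted p = 0.860), with 0.56 in pool 1-4 and 0.05 in pool 5-8, and it was 0.04 without the ProMyo 1-4 array.

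Ccdc80 encodes a secreted matrix protein, also known from adipose tissue, that promotes cell adhesion. Probe set 1424186_at read 2.89 and 2.82 in ProMyo muscle, against 3.86 and 3.88 in saline muscle. The arrays of each group lay close together and the groups were well apart. Ccdc80 averaged 2.86 ± 0.05 in ProMyo muscle and 3.87 ± 0.02 in saline muscle (SD, n = 2 pools each), and the difference of -1.01 ± 0.15 (log2 ± SE) was nearly equal in the pools, at -0.96 in animals 1-4 and -1.06 in animals 5-8. Its 95% interval, -1.40 to -0.62, corresponds to 0.38 to 0.65 times the saline level. It had the 11th lowest difference and the 7th smallest unadjusted p (0.00107) of 15102 genes, and did not pass after adjustment (limma, adjusted p = 0.822). The dimmer probe set of Ccdc80, 1424187_at, read 0.91 and 0.58 in ProMyo muscle, against 0.73 and 1.69 in saline muscle. Its difference was -1.11 in pool 5-8 and 0.19 in pool 1-4, where the saline array was within the Bacillus controls. The 2 probe sets therefore went the same way in pool 5-8 alone. There the ProMyo value of the dimmer one was at the edge of the Bacillus controls, at 0.575 against 0.57, so the size of its difference is uncertain.

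**Figure D2:**
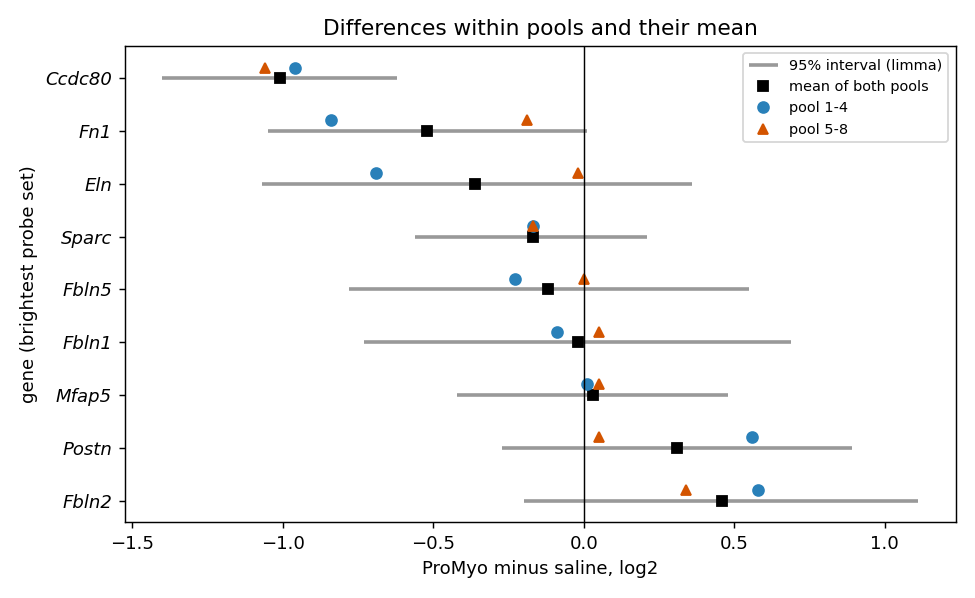
ProMyo minus saline on the log2 scale is drawn for the brightest probe set of each gene, with circles and triangles for the difference within pools 1-4 and 5-8, squares for their mean and grey bars for limma's 95% intervals. The interval of Ccdc80 alone, from -1.40 to -0.62, lies clear of 0, and the pools are furthest apart for Eln (-0.69 and -0.02) and Fn1 (-0.84 and -0.19).

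Over the 9 genes the median difference was -0.12, against 0.01 over all genes tested. Taken within pools, the median of the 9 differences was -0.17 for animals 1-4 and 0 for animals 5-8. In both pools 4 genes were lower in ProMyo muscle (Fn1, Eln, Sparc and Ccdc80), where 24.0% of all genes were, and 3 were higher (Fbln2, Mfap5 and Postn), where 29.0% of all genes were. Fbln1 and Fbln5 had no common sign. Without the saline 5-8 array, which stood apart in its controls, the median was -0.317. Ccdc80 was then at -1.0, Fn1 at -0.67, Eln at -0.32, Sparc at -0.18, Fbln1 at -0.32 and Fbln5 at -0.41. Mfap5 was at 0.12, and Fbln2 and Postn were each at 0.29. That fit sets both ProMyo pools against saline 1-4 alone, so differences between pools of animals enter it. Within pool 1-4, Fbln1 was at -0.09, Fbln5 at -0.23 and the median of the 9 at -0.17. The ProMyo arrays were the 2 lowest for Fn1, Sparc and Ccdc80, against 15.7% of all genes, and the 2 highest for Postn, against 17.8%. Ccdc80 was the 1 gene at least 1.5-fold lower in both pools, against 0.563% of all genes, and none was at least 1.5-fold higher in both, against 1.03%.

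**Figure D3:**
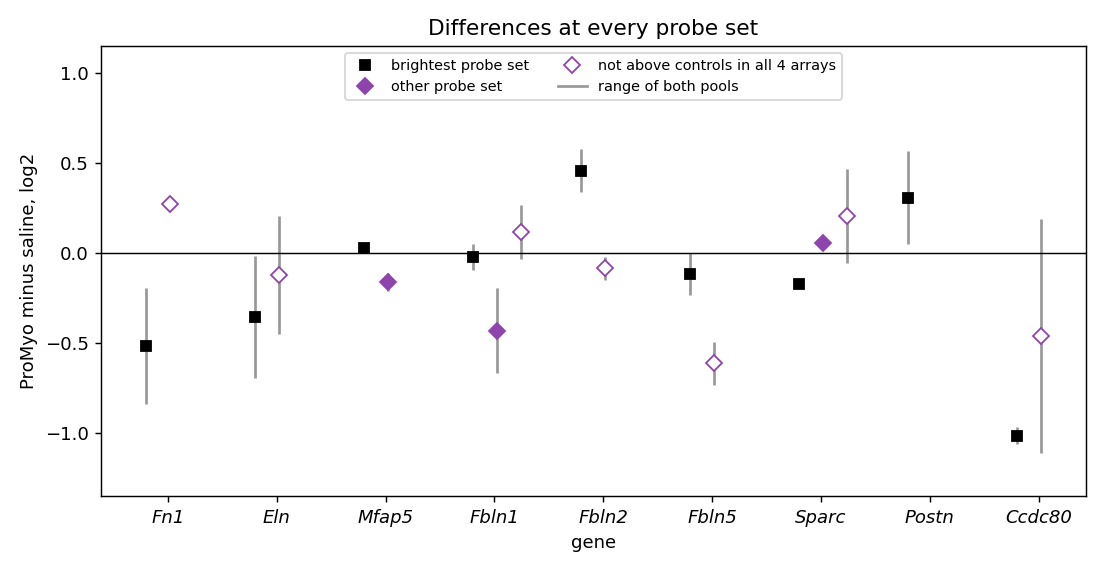
ProMyo minus saline on the log2 scale is drawn for all 19 probe sets of the 9 genes, with squares for the brightest, diamonds for the others, open symbols for those not above the Bacillus controls in all 4 arrays and grey lines from one pool to the other. Of the 10 other probe sets 3 were above the controls in every array, and they read -0.43 for Fbln1, -0.16 for Mfap5 and 0.06 for Sparc.

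Of the 10 genes named at the outset 6 had an entry in the RefSeq promoter table (GRCm38.p6), Fbn1 among them. Of the measured ones, Fbln2 and Sparc had 1 listed start and the same sign of difference in both pools. The 250 bases before that start are shown because these genes, both of the matrix, went in opposite directions at their brightest probe sets. Neither difference passed the test, and the second bright probe set of Sparc was at 0.06. A link between matches and differences was not tested. Capitals mark matches to CAGAC, a form of the short element that Smad proteins bind, on either strand (GTCTG on the other). Shorter matches, such as AGAC, were not marked, and both windows hold them. The Fbln2 window is chr6:91212514-91212763 on the plus strand and the Sparc window is chr11:55420081-55420330 on the minus strand.
Fbln2: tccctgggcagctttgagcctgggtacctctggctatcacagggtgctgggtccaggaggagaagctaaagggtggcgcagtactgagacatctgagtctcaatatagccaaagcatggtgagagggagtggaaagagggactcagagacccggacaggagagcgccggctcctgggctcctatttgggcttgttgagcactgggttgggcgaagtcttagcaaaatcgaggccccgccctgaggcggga
Sparc: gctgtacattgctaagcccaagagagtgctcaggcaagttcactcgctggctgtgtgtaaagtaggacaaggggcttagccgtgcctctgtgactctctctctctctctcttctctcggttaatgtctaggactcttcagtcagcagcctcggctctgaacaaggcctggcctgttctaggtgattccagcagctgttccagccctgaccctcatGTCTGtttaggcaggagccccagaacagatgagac
Sparc held 1 match, which begins 35 bases before the start, and Fbln2 held none, while 42.2% of the 32851 windows of the same length in the table held at least 1. Neither window held TATAAA or TGACTCA, the TATA box and an AP-1 site, on either strand (TTTATA and TGAGTCA on the other), which were present in 12.4% and 4.46% of the windows. Ccdc80 and Fn1 were not among the 6 genes with an entry.

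Other genes of the elastic fibre, of the matricellular family and of the cell surface were taken as lists, also chosen with earlier results known. Beside the counts of these lists, 24.0% of all genes tested were lower and 29.0% higher in both pools. Of 12 measured elastic fibre partners 0 passed the test in either direction (limma, smallest adjusted p = 0.822), 6 were lower and 3 higher in both pools, and their median was -0.14. Lox, the enzyme that crosslinks elastin and collagen, read 3.75 and 3.93 in ProMyo muscle, against 4.18 and 4.48 in saline muscle. Both ProMyo arrays were below both saline arrays, with a difference of -0.49 ± 0.19 (log2 ± SE). Mfap4, a microfibril-associated protein that binds elastin, was at -0.33 ± 0.18, and Efemp1, a fibulin of the same family as the 3 above, was at 0.37 ± 0.20 with 0.38 and 0.35 within pools.

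Of 18 other matricellular genes 0 passed (limma, smallest adjusted p = 0.825), 6 were lower and 6 higher in both pools, and the median was -0.10. Ccn3, a regulator of growth factor and integrin signals, was at 0.63 ± 0.32 (log2 ± SE), with 0.08 in pool 1-4 and 1.18 in pool 5-8, where the saline array was low at 2.78. Tnc, tenascin-C of tendon junctions and regenerating muscle, was at 0.46 ± 0.25, with 2.12 and 2.50 in ProMyo muscle against 1.60 and 2.10 in saline muscle. Thbs2, a thrombospondin that limits vessel growth, was at -0.30 in both pools. These genes thus had no common direction.

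Of 8 receptors of fibronectin and other matrix proteins 0 passed (limma, smallest adjusted p = 0.825), 3 were lower and 2 higher in both pools, with a median of -0.14. Itgb1, the beta chain of the main fibronectin receptor, was at 0.22 ± 0.17 (log2 ± SE), and Itgb5, a partner of the alpha-v chain, at -0.30 ± 0.16. Itgb3, the beta chain of an integrin of platelets and vessels, read 0.43 and 0.61 in ProMyo muscle, against 0.73 and 2.23 in saline muscle. Itgb3 was within the Bacillus controls in both arrays of pool 1-4, so the size of its difference and its sign in that pool are uncertain. Itga8, also counted as lower in both pools, was within the Bacillus controls in both arrays of pool 5-8. It read 0.43 in ProMyo muscle and 0.50 in saline muscle there, so its sign in that pool is uncertain too. Of 6 TGF-beta ligands and target genes 0 passed (limma, smallest adjusted p = 0.935), and none had the same sign in both pools. Tgfb3 was at -0.11 ± 0.16, Tgfb2 at -0.10 ± 0.16 and the repressor Tgif1 at -0.11 ± 0.18.

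**Figure D4:**
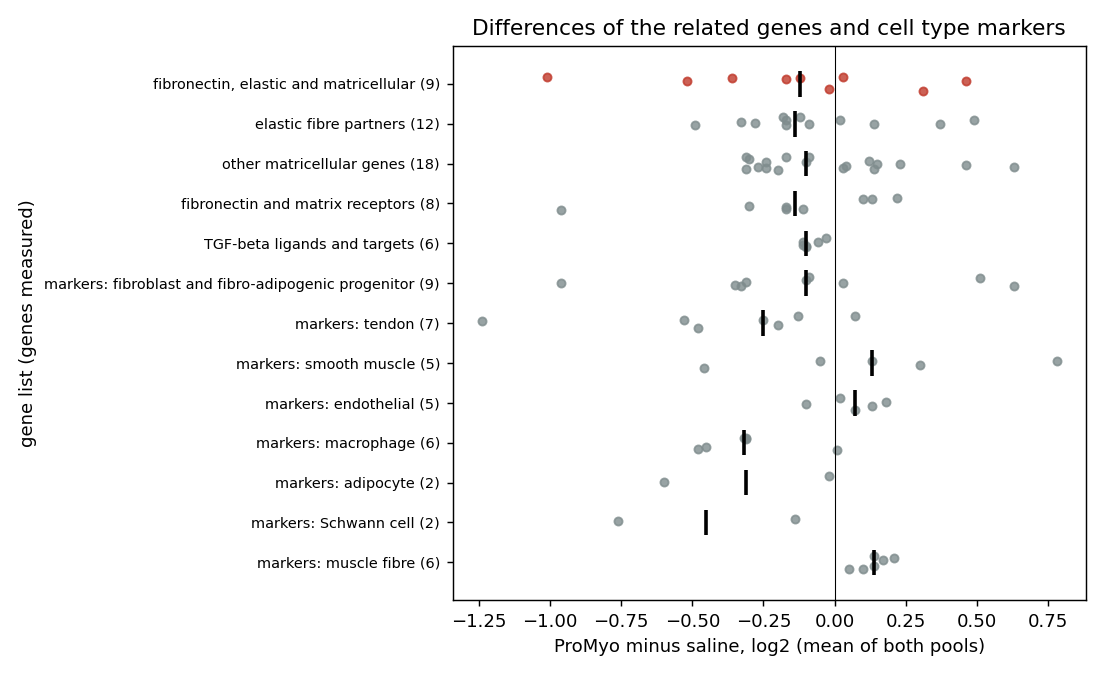
Each point is 1 gene's ProMyo minus saline difference on the log2 scale at its brightest probe set, with the fibronectin, elastic fibre and matricellular genes in red, the related genes and cell type markers in grey, and a black bar at each list's median. The 9 genes spread from -1.01 to 0.46 around a median of -0.12, and the tendon markers have a median of -0.25.

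Markers of the cells that make these proteins, and of other cells of whole muscle, were read on the same arrays. Beside the counts of markers, 24.0% of all genes tested were lower and 29.0% higher in both pools. In whole muscle fewer cells of a type and less RNA per cell cannot be told apart. Of 9 measured markers of fibroblasts and fibro-adipogenic progenitors 6 were lower and 2 higher in both pools, with a median of -0.10, and their summed linear signal ranged from 1110 to 1170 in ProMyo arrays and from 1270 to 1330 in saline arrays. Pi16, a marker of progenitor fibroblasts, was at -0.96 ± 0.20 (log2 ± SE). Dpp4, another marker of these progenitors, was at 0.51 ± 0.16 and Lum (lumican) at 0.63 ± 0.25, both higher in each pool. Pdgfra, the defining receptor of these cells, was at -0.10 ± 0.16 and Dcn (decorin) at 0.03 ± 0.18. The gap between the sums came from Gsn (gelsolin), whose linear signal was 682 to 707 in ProMyo arrays and 832 to 886 in saline arrays. Without it the other 8 markers summed to 432 to 459 in ProMyo arrays, around the 442 of both saline arrays.

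The summed signal of 7 tendon markers ranged from 800 to 903 in ProMyo arrays and from 1140 to 1220 in saline arrays, with 4 lower and 0 higher in both pools. Most of that gap came from Fmod (fibromodulin), at 595 to 653 in ProMyo arrays and 878 to 925 in saline arrays. The other 6 summed to 205 to 250 in ProMyo arrays and 261 to 290 in saline arrays. On the log2 scale Chad (chondroadherin) was at -1.24 ± 0.28, Fmod at -0.53 ± 0.16 and Scx, the defining factor of tendon cells, at 0.07 ± 0.17. Kera (keratocan) was at -0.48 ± 0.28, with 0.04 in pool 1-4 and -1.0 in pool 5-8, and its groups overlapped. The tendon sum was thus lower on the arrays where Fn1, Sparc and Ccdc80 were lower, and its part in their differences was not tested. The sums without the brightest marker were chosen after seeing the data.

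Of 6 macrophage markers 4 were lower and 0 higher in both pools, where 24.0% and 29.0% of all genes were. Their summed signals were 141 to 158 in ProMyo arrays and 177 to 214 in saline arrays. The sums overlapped between groups for the 5 smooth muscle markers, 125 to 130 in ProMyo and 126 to 155 in saline arrays. Within that list Acta2 was at -0.46 ± 0.21 and Tagln at 0.78 ± 0.27 (log2 ± SE). Both ProMyo arrays were below both saline arrays for Acta2, as for 15.7% of all genes, and above them for Tagln, as for 17.8%. The sums also overlapped for the 5 endothelial markers, 105 to 110 in ProMyo and 95 to 109 in saline arrays. For the 2 adipocyte markers they were 3.37 to 4.03 in ProMyo and 3.66 to 6.42 in saline arrays, again with overlap. Of the adipocyte markers, Lep was above the Bacillus controls in 1 array. The 2 Schwann cell markers summed to 6.59 to 8.84 in ProMyo and 11.0 to 12.0 in saline arrays. That gap came from Mbp, at 4.41 to 6.08 in ProMyo and 8.67 to 8.91 in saline arrays. The other, S100b, overlapped, at 2.18 to 2.76 in ProMyo and 2.36 to 3.09 in saline arrays. The 6 muscle fibre genes, all higher in both pools (29.0% of all genes were), summed to 20000 to 21100 in ProMyo and 18200 to 19300 in saline arrays. No marker was within the Bacillus controls in every array, and no marker passed the test (limma, smallest adjusted p = 0.822).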

How the data were processed

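RNA of whole muscle was extracted with Tri-reagent and labelled with Nugen Ovation V2 and Encore Biotin kits, per the labels' protocols. The deposited values are the authors' log2 values per probe set. The submitters' processing notes name RMA and Affymetrix Expression Console, without versions. The log base was read from the range of -0.45 to 13.2, and medians near 1 are low for RMA, so folds hold on the deposited scale.

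Of 45101 probe sets, 34945 had 1 gene symbol in the probe table, 932 several and 9224 none or were array controls; symbols were looked up in a RefSeq table of GRCm38.p6, where 34741 matched and 0 changed. Each gene took its brightest probe set, and genes whose mean fell under the 25th percentile of probe sets (0.45) were dropped, leaving 15102. No further normalization was applied. The groups were compared with limma 3.58.1 under R 4.3.3 (lmFit, eBayes without trend, 2 residual and 3.16 prior degrees of freedom) with Benjamini-Hochberg adjustment over all genes and a threshold of 0.05, after the script was tested on simulated data. An exact permutation test of 2 arrays against 2 cannot go below p = 0.333 (two-sided) and was not run. Precision is limited by having 2 arrays per group: the SE of a difference had a median of 0.193. Counts by sign or by 1.5-fold within pools carry no test. The pools pair both muscles of the same mice; deviations of same-numbered pools correlated with r = 0.16 across genes. The main fit leaves the pairing out, so its errors include differences between pools of animals.

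The genes and lists were chosen with earlier results of these data known. Named genes were all 9 measured members and, in each related list, the 3 with the smallest unadjusted p; a gene chosen by likeness of pattern was not sought, since 4 arrays are too few for a correlation. The myostatin gene was not analysed here. Alternatives tried were quantile normalization, median-centred arrays, averaging a gene's probe sets, its next brightest probe set, every probe set, eBayes with trend, other folds, the filter dropped or raised to the 50th percentile, the pool as a block, and leaving out each array.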

Additional observations from a re-analysis of the deposited data

How the results depend on the processing

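With the pool as a replicate block, limma called 0 of 15102 genes (1039 at an unadjusted p under 0.05; 874 without it), and the differences were the same: Ccdc80 at -1.01 ± 0.15 (adjusted p = 0.681) and Fbln2 at 0.46 ± 0.16, with an unadjusted p of 0.0491 in place of 0.134. The block changed no call. Every other setting also called 0 genes except the fit of every probe set, which called 1, at none of the 9 genes.

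The median difference of the 9 genes (-0.116) was -0.112 to -0.193 under other filters, normalizations and probe set means. Without each array in turn it ranged from -0.317 (without saline 5-8) to -0.06 (without saline 1-4). Such fits set 1 pool of a group against both pools of the other, so they include differences between pools. Genes lower in both pools numbered 3 to 5. Those lower by 1.5-fold in both pools numbered 1, except 0 at a fold of 2 and 0 with the mean of all probe sets, where the dim probe set of Ccdc80 enters. Counts within pools could not be made without an array.

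Ccdc80 kept its sign in all 13 alternatives, from -1.08 with quantile normalization to -0.46 at the next brightest probe set. Most of these could not turn it. The block, the trend, the other filters and the fit of every probe set reuse the same values (-1.01). Dropping 1 array cannot turn a gene whose ProMyo arrays both lie below both saline arrays. The -0.46 came from a dim probe set with opposite signs within pools (0.19 and -1.11), so it decides no sign. The sign turned for Sparc at the next brightest probe set (0.06) and with the mean of probe sets (0.03), and for Mfap5 at the next brightest probe set (-0.16), with the mean of probe sets (-0.07) and with quantile normalization (-0.04). At the next brightest probe set of Fn1 the value was 0.27, but its saline level was within background and decides no sign. Without 1 array in turn the ranges were -0.73 to 0.02 for Eln, -0.32 to 0.28 for Fbln1, -0.41 to 0.18 for Fbln5 and -0.08 to 0.14 for Mfap5. The next brightest probe sets of Fbln2 and Fbln5 were below the filter and gave no value. The causes were not tested.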
